A study of Mus musculus with 16 samples.

Results

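A set of 9 genes encodes transcription factors and cofactors known from stem cells of blood: Hlf, Mecom, Prdm16, Meis1, Hoxa9, Erg, Lmo2, Tal1 and Gata2. They were taken by symbol from the list of 32286 genes counted in hematopoietic stem and progenitor cells (HSPCs) of mouse BM, and all 9 were found. Their RNA is described by progenitor class and by treatment, with the share of cells in which a factor was detected kept apart from the level in the cells that had it.

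Blood stem cells renew themselves and feed all blood lineages through multipotent progenitors (MPPs), and a small network of transcription factors holds them in that state. Hlf, Mecom and Prdm16 are best known for self-renewal, Meis1 and Hoxa9 bind DNA as partners, and Erg, Lmo2, Tal1 and Gata2 meet on shared enhancers of blood genes, where Lmo2 is an adaptor that does not bind DNA itself. Most of these factors are also known from leukemia, and Gata2, Tal1 and Lmo2 continue into mast cells, megakaryocytes or red cell precursors.

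The study tested IACS-70654, an inhibitor of the bromodomain (BRD) of the coactivators CBP and P300, in mice with mammary tumors. The BRD is the domain that reads acetylated histones. The study looked at tumor cells and at the immune cells around them, and bone marrow was 1 part of it. Of its 16 single-cell libraries, 6 hold HSPCs, sorted as lineage-, c-Kit+, CD45+ living cells from tibia and femur. All mice were female WT BALB/c. Of the 3 groups, with 2 replicate libraries each, WT mice carried no tumor and received no treatment, and both other groups carried 2208L, a transplantable Trp53-null mammary tumor placed in the mammary fat pad, and received either vehicle or IACS-70654 by mouth, 3 days on and 2 days off, for 7 days in the series record. The labels of the WT group say only that it is a control. Each sample pooled cells of 3 mice, and the record speaks of 1 pool for each treatment group, so the spread between replicate libraries may be technical and p-values measure that spread only. With 2 libraries a group, the smallest p that an exact permutation test of a single value can give is 0.333, so the tests below rest on models fitted across all genes.

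The files give counts of unique molecular identifiers (UMIs), each standing for 1 captured RNA molecule, from the 3′ ends of transcripts. The libraries held from 3231 to 8205 cell barcodes with 27427163 to 68415534 UMIs, no barcode was shared between libraries, and 2836 to 7517 cells per library were kept. The median UMIs per kept cell ran from 6712 to 9512 and were lowest in both IACS-70654 libraries. Cells were clustered without the 9 factors, which also took no part in the naming, and clusters were called X-like from lists of marker genes. The HSC-like cluster held 860 cells, from 95 to 225 per library, and showed 8 of its own markers, with Slit2, Mecom and Samd12 at the top of its genes by fold. MPP-like cells came from 2 clusters, 1 of them cycling, with 9 markers each. A cluster led by Pdzph1 and Apoe and a cluster led by S100a8 and S100a9 met no naming rule and are called by these genes.

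Of the kept cells, 2.71% and 3.19% were HSC-like in the WT libraries, 3.12% and 3.35% after vehicle, and 2.99% and 3.08% after IACS-70654. MPP-like cells took 12.8% and 13.8%, 12.4% and 14.2%, and 33.7% and 33.9% in the same order. Such shares are set by the sort and by every other class, and they bear on each value taken over all cells.

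Mecom is the factor on which the comparison of stem cells with MPPs turned, so its promoters are shown. It lies on the minus strand of chromosome 3 at 29951296 to 30548008 (GRCm38, GENCODE vM21; 597 kb), is known for a long form and a shorter form, EVI1, from separate starts, and overlaps the antisense gene Mecomos. RefSeq (GRCm38.p6) gives 2 starts in this span, and the 250 bases before each are printed 5′ to 3′ on the gene's strand, with motif letters in capitals. The 3′ counts do not tell transcripts from these starts apart.
Mecom start 1 (chr3:30509760-30510009, minus strand): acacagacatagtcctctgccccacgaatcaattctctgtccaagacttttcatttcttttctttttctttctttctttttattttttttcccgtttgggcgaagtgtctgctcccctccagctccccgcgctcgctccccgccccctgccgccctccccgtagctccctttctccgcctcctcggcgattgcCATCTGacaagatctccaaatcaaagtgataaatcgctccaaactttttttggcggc
Mecom start 2 (chr3:30013205-30013454, minus strand): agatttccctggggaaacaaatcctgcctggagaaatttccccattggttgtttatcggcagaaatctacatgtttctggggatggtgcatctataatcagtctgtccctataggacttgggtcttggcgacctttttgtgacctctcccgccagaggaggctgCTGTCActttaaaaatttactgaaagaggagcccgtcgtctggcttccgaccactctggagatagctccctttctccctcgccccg
Meis1 (chr11:19018970-19019219, minus strand), printed because it moved the other way: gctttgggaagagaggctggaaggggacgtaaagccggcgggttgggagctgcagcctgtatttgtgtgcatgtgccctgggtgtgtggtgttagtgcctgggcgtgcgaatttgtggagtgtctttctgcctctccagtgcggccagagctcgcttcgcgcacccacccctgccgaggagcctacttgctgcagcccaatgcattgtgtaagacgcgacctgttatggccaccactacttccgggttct

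The first Mecom window holds CATCTG, the other strand of the E-box CAGATG that TAL1 partners are known to bind, letters found on either strand in 14.4% of 32851 promoter windows of this length. The second holds CTGTCA, the other strand of the MEIS motif TGACAG, found in 15.9%. The Meis1 window holds neither of these nor any of the other motifs searched. Across 13 windows of 8 factors, the GATA factor motif AGATAA, found in 9.99% of all windows, occurred in windows of Erg and Tal1, the ETS motif AGGAAG, found in 29.5%, in windows of Erg and Hoxa9, TGACAG in windows of Erg and Mecom, and CAGATG in a window of Mecom. CAGCTG (E-box, in 13% of all windows) and TTACGTAA (PAR bZIP, 0.113%) occurred in none. These are letter matches and do not show binding. Lmo2 had no entry in the promoter table.

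**Figure D1:**
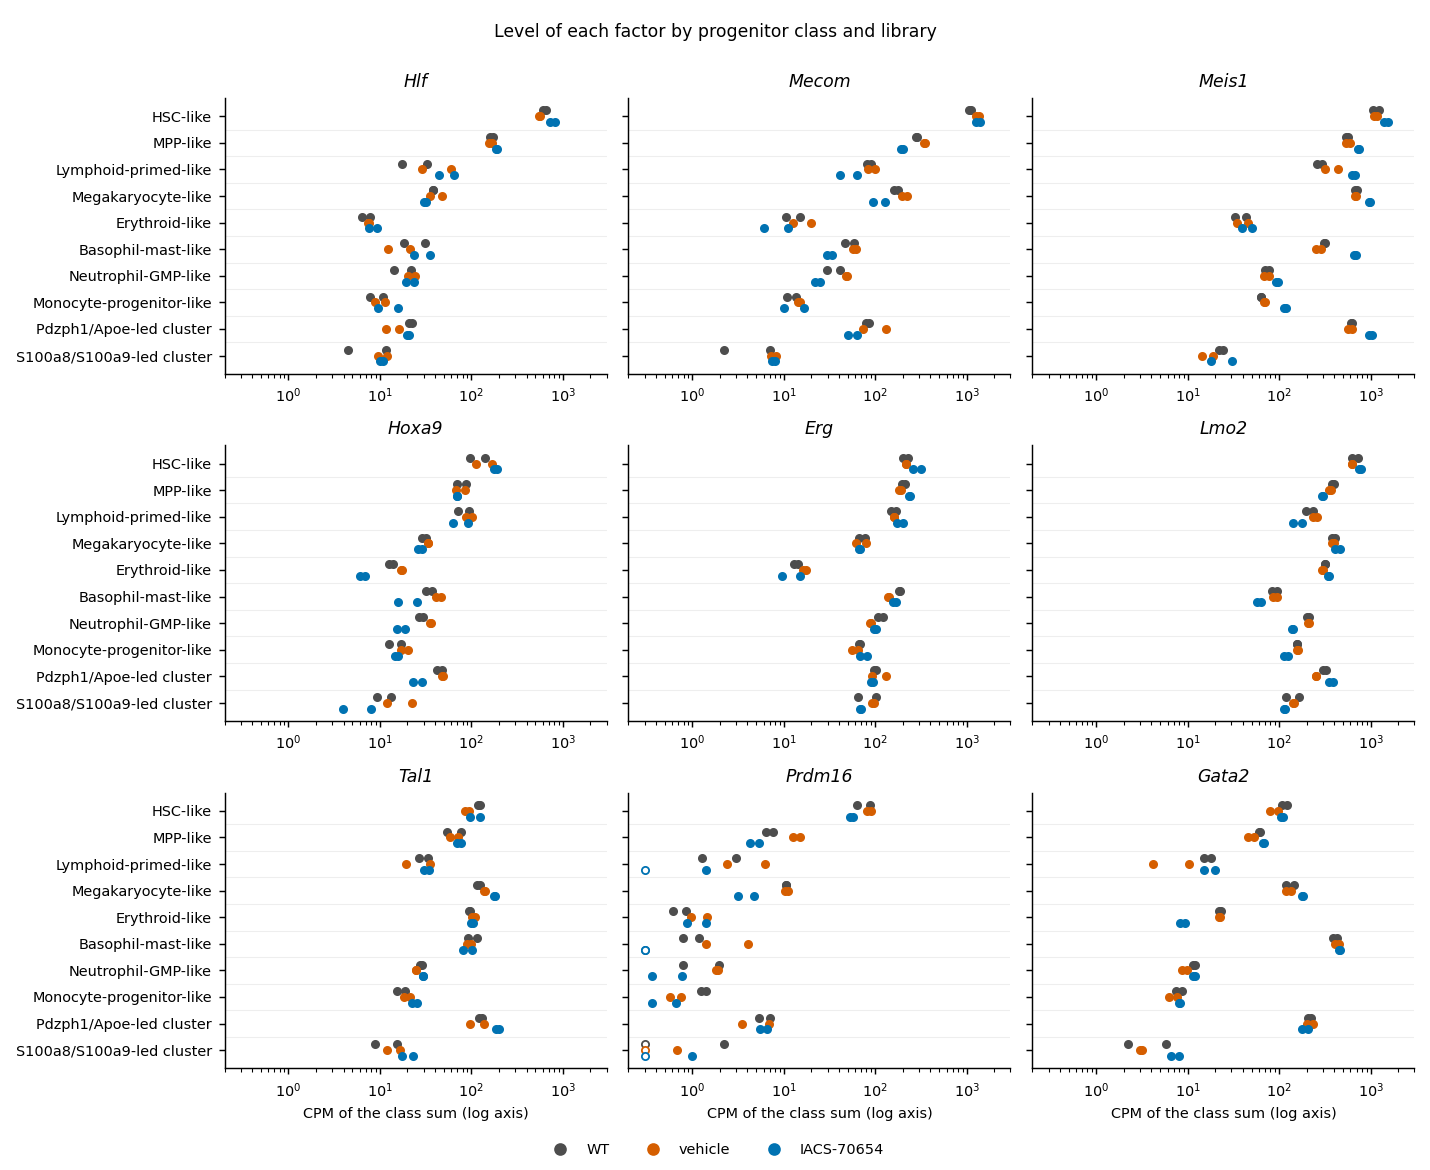
Level of each factor in 10 progenitor classes, in CPM of the class (log axis). Each point is 1 library, colored by group, and hollow points at the lower edge are libraries at 0 CPM. Hlf, Mecom and Prdm16 are highest in HSC-like cells, with no overlap with the class that follows, whereas Gata2 is highest in Basophil-mast-like cells.

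Levels were first compared across classes as CPM, the UMIs of a gene scaled to the total UMIs of the class in a library (counts per 1e+06), as a description over all 6 libraries. Of the 9 factors, 7 had their highest mean in HSC-like cells. Hlf, a PAR bZIP factor of stem cells, averaged 655 ± 104 CPM there (SD, n = 6 libraries) and 173 CPM in MPP-like cells, the next class. Mecom averaged 1238 ± 136 CPM in HSC-like cells, 274 CPM in MPP-like and 162 CPM in Megakaryocyte-like cells. Prdm16, a Mecom relative, averaged 71.9 CPM in HSC-like and 8.54 CPM in MPP-like cells. For these 3 factors no library of another class reached the lowest HSC-like library.

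Meis1, a TALE homeobox factor, averaged 1247 ± 185 CPM in HSC-like cells, 783 CPM in Megakaryocyte-like cells, 734 CPM in the Pdzph1/Apoe-led cluster and 613 CPM in MPP-like cells, so it stayed broad among early and megakaryocytic cells. Its partner Hoxa9 averaged 148 CPM in HSC-like and 84.7 CPM in Lymphoid-primed-like cells, whose libraries overlapped. Lmo2 averaged 688 CPM in HSC-like cells and 403 CPM in Megakaryocyte-like cells, with no overlap, and then 348 CPM in MPP-like and 321 CPM in Erythroid-like cells, which overlapped. Erg, an ETS factor, averaged 239 CPM in HSC-like and 207 CPM in MPP-like cells, with overlap, and was lowest in Erythroid-like cells at 14.2 CPM. The other two had their highest level elsewhere. Gata2 averaged 430.4 CPM in Basophil-mast-like cells, above every library of any other class, then 208 CPM in the Pdzph1/Apoe-led cluster, 145 CPM in Megakaryocyte-like and 103 CPM in HSC-like cells. Tal1 ran from 146 CPM in Megakaryocyte-like cells through 145 CPM in the Pdzph1/Apoe-led cluster, 107 CPM in HSC-like and 101 CPM in Erythroid-like cells to 95.7 CPM in Basophil-mast-like cells, each overlapping the next.

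Detection in single cells was compared after each cell had been thinned at random to 3000 UMIs, which left 75 to 163 HSC-like cells per library. Shallower cells were left out, and unevenly by group. HSC-like cells went from 205 and 95 to 163 and 75 in vehicle, and from 225 and 133 to 133 and 85 with IACS-70654. Basophil-mast-like cells went from 651 and 282 to 596 and 260, and from 251 and 138 to 168 and 92. All shares and levels per positive cell in thinned cells thus describe the deeper cells. In HSC-like cells, Mecom was detected in 89.4% to 93.3% of thinned cells and Meis1 in 90.7% to 97.7%, whereas Prdm16 was detected in 14.1% to 21.95%. Free RNA in droplets can give UMIs to cells that do not express a gene. The S100a8/S100a9-led cluster, which met no naming rule, therefore serves as background for 3 factors. Mecom was detected in 1.29% to 2.54% of its thinned cells, Meis1 in 3.17% to 7.63% and Prdm16 in 0% to 0.413%. The unthinned median was 3188 to 4243 UMIs per HSC-like cell and 6252 to 8340 per cell of that cluster. The shares in HSC-like cells were above that background in every library for these 3 factors. For Erg the cluster is no background, since 18.6% to 30.5% of its thinned cells had it.

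**Figure D2:**
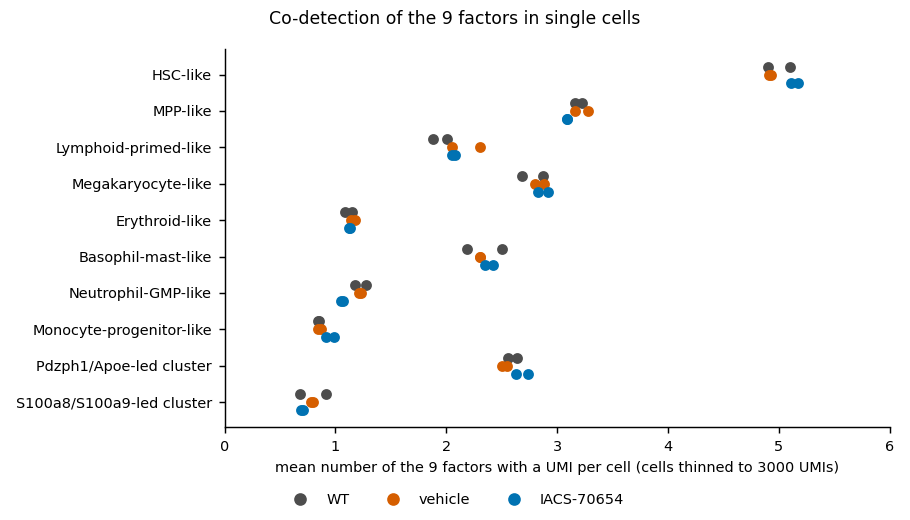
Mean number of the 9 factors detected per cell after thinning to 3000 UMIs, by class, with 1 point per library colored by group. Over all libraries, HSC-like cells had 4.9 to 5.17 factors per cell and MPP-like cells 3.09 to 3.28. The IACS-70654 libraries were the highest in HSC-like and the lowest in MPP-like cells.

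Single HSC-like cells held many of the factors at once. The mean number detected per thinned cell was 4.9 and 5.1 in WT, 4.93 and 4.91 after vehicle and 5.17 and 5.11 after IACS-70654. MPP-like cells held 3.16 and 3.22, 3.16 and 3.28, and 3.09 and 3.09 in the same order. The IACS-70654 libraries were the highest in HSC-like and the lowest in MPP-like cells, by less than the distance between the classes. At least 5 factors were found in 62.8% to 75.3% of HSC-like cells and in 17.9% to 20.5% of MPP-like cells. If the factors were detected independently of each other, the second share would be 12.8% to 16.5%, below the observed share in each library, and the first 62.7% to 72.2%. Erythroid-like cells held 1.09 to 1.18 factors per cell.

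The 3 groups were then compared within each class by edgeR's quasi-likelihood test on UMIs summed over the class in each library, adjusted over all genes tested by the Benjamini-Hochberg method. A factor is called changed, risen or fallen at an adjusted p under 0.01 with a log2 change over 0.5 in size. The 12 classes with at least 20 cells in enough libraries gave 91 tests of the 9 factors in each comparison, since factors with too few UMIs in a class were left out. Meis1 and Lmo2 were tested in 12 classes, Mecom, Erg and Tal1 in 11, Hlf and Hoxa9 in 10, Gata2 in 9 and Prdm16 in 5.

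With IACS-70654 against vehicle, 25 of the 91 tests were called, 5 up and 20 down, and 58 had an unadjusted p under 0.05. Of the 109160 tests of all genes in the same classes 5.16% were called, and 30349 had an unadjusted p under 0.05. In HSC-like cells 0 of 9 factors were called by edgeR, and 0 by DESeq2, while 6 had an unadjusted p under 0.05. Of all 7116 genes tested in the class 1.01% were called, and 979 had an unadjusted p under 0.05. In MPP-like cells 2 of 9 were called (background, the share of all tested genes called in the class, 4.98%), in Megakaryocyte-like cells 3 of 9 (7.6%), in Neutrophil-GMP-like cells 4 of 9 (5.21%) and in Erythroid-like cells 3 of 9 (6.54%). In Basophil-mast-like cells 4 of 8 were called (9.41%), in Lymphoid-primed-like cells 3 of 8 (3.67%), in Monocyte-progenitor-like cells 1 of 8 (5.99%), in the Pdzph1/Apoe-led cluster 3 of 8 (3.37%) and in the S100a8/S100a9-led cluster 2 of 7 (4.76%). None of 5 factors was called in Eosinophil-like cells (0.729%), where 1 WT library had too few cells and was left out. None of 2 was called in an Igkc-led cluster (0.0681%). DESeq2 also called 0 in both. An unadjusted p under 0.05 was found for 0 and 1 factors, beside 291 of 3155 and 363 of 2939 genes.

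**Figure D3:**
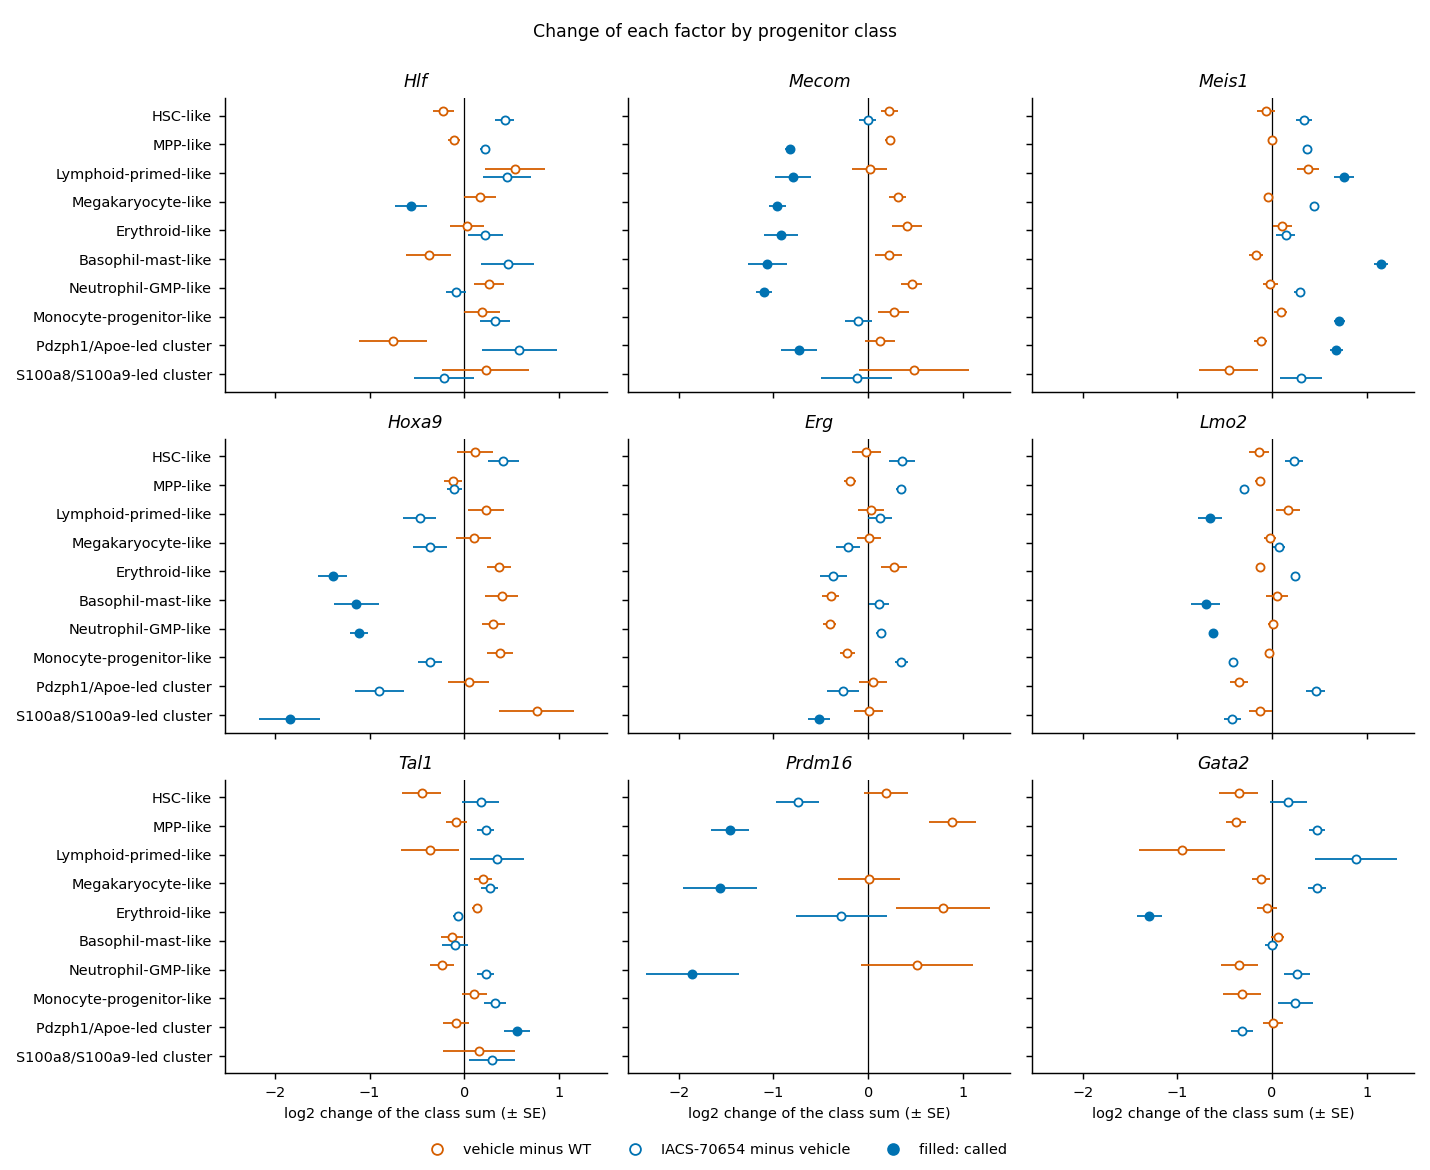
Log2 change of each factor in each class, vehicle minus WT in orange and IACS-70654 minus vehicle in blue, with bars of 1 SE from edgeR. Filled points are called (adjusted p under 0.01, log2 change over 0.5 in size). Mecom lies below 0 in MPP-like, Megakaryocyte-like and Neutrophil-GMP-like cells and at 0 in HSC-like cells with IACS-70654.

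Mecom fell with IACS-70654 in 7 of 11 classes. In MPP-like cells its level was 285 and 279.6 CPM in WT, 337 and 352 CPM in vehicle and 199 and 189 CPM in IACS-70654 libraries. Both IACS-70654 libraries lay below all others, and both vehicle libraries above WT. The change from vehicle was -0.83 ± 0.046 on the log2 scale (edgeR, SE, adjusted p = 4.7e-20, n = 2 libraries a group). In HSC-like cells the level was 1057 and 1105 CPM in WT, 1245 and 1362 CPM in vehicle and 1397 and 1264 CPM with IACS-70654. There the vehicle and IACS-70654 libraries overlapped, and the change was -0.01 ± 0.086 (edgeR, adjusted p = 0.98).

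The difference between these 2 effects was tested itself, as an interaction in edgeR with the library as a block. The log2 change of Mecom was higher by 0.81 ± 0.094 in HSC-like than in MPP-like cells (adjusted p = 4.4e-11), and it was called in each of 7 alternatives. These changed the scaling or left out 1 library. Other clusterings were not tried for this difference, and no HSC-like cluster formed when components were centered within libraries. Of the 9 factors, 2 had such a difference, against 0.141% of 11376 genes. The second was Lmo2, with 0.52 ± 0.11 (adjusted p = 0.0027), a call lost without IACS-70654 replicate 1 (0.52) or without vehicle replicate 1 (0.50). For vehicle against WT 0 of 9 were called by edgeR, 0 had an unadjusted p under 0.05, and the background was 0.00879%.

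Mecom also fell where it is expressed at a lower level. In Megakaryocyte-like cells it was at 159 and 177 CPM in WT, 219.9 and 193 CPM in vehicle and 128 and 93.4 CPM in IACS-70654 libraries, a change of -0.96 ± 0.092 (edgeR, adjusted p = 4.1e-15). In Neutrophil-GMP-like cells it was at 29.7 and 41.4, 47.5 and 48.8, and 21.8 and 24.9 CPM, a change of -1.10 ± 0.086 (adjusted p = 3.7e-16). In both classes the IACS-70654 libraries were the lowest of all. The other calls were Basophil-mast-like cells with -1.06, Erythroid-like cells with -0.92, Lymphoid-primed-like cells with -0.79 and the Pdzph1/Apoe-led cluster with -0.73. Leaving out a library ended each of these 4 calls: IACS-70654 replicate 1 in Basophil-mast-like cells (-0.96), vehicle replicate 1 in Erythroid-like cells (-0.45), and several libraries in Lymphoid-primed-like cells (IACS-70654 replicate 2, -0.56, vehicle replicate 1, -0.98, or vehicle replicate 2, -0.70) and in the Pdzph1/Apoe-led cluster (WT replicate 1, -0.73, vehicle replicate 2, -0.38, or IACS-70654 replicate 1, -0.94, or 2, -0.62). Thinned sums also ended the last 3 of them (-0.48, -0.89 and -0.97), DESeq2 those in Erythroid-like cells (-0.91) and in the Pdzph1/Apoe-led cluster (-0.83), no filter on low counts the latter (-0.70) and centered components that in Lymphoid-primed-like cells (-0.66). The Basophil-mast-like class is made of 2 clusters whose proportions moved with treatment, and within them the change of Mecom was -1.48 (adjusted p = 8.5e-04, called) in the cluster led by Prss34 and Mcpt8 and -0.39 (adjusted p = 0.67, not called) in that led by Gzmb and Scin. The makeup of the Pdzph1/Apoe-led cluster moved too. In a finer clustering (resolution 1.5) most of it came apart into a part led by Pdzph1 and Sox5, which held 70.2% and 70.9% of its cells in vehicle and 5.15% and 2.77% with IACS-70654, and a part led by Tgfbr3, which held 28.8% and 28.2%, then 94.1% and 94.9%. The first part had 7 cells in 1 treated library and could not be tested. Within the Tgfbr3-led part, a view chosen after the data had been seen, Mecom was at 163 and 363 CPM in vehicle, from 60 and 29 cells, and at 66.0 and 54.1 CPM with IACS-70654, and the change was -1.94 (edgeR, adjusted p = 5.4e-08, called, background 0.567%). In Monocyte-progenitor-like cells, with -0.10 ± 0.14, Mecom was not called.

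The fall in MPP-like cells was present in both clusters of the class, a comparison added after the data had been seen. In the larger cluster Mecom was at 318 and 309 CPM in WT, 438 and 408 CPM in vehicle and 222 and 218 CPM with IACS-70654, a change of -0.96 ± 0.048, where 4.32% of genes were called. In the cycling cluster it was at 222 and 218, 240.3 and 269.5, and 154 and 136 CPM, a change of -0.79 ± 0.08, with 4.54% of genes called. Finer clustering gave 4 MPP-like clusters, and Mecom was called down in each, with changes from -1.28 to -0.65.

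Prdm16, a SET domain protein related to Mecom, was called down in 3 of the 5 classes in which it could be tested. In MPP-like cells it was at 7.51 and 6.43 CPM in WT, 12.6 and 15.1 CPM in vehicle and 5.30 and 4.27 CPM with IACS-70654, sums of 19 to 84 UMIs per library. Vehicle was highest and IACS-70654 lowest with no overlap, and the change was -1.46 ± 0.2 (edgeR, adjusted p = 1.3e-07). With IACS-70654 against WT, Prdm16 was not called in this class. In HSC-like cells it was at 62.8 and 87.1 CPM in WT, 90.3 and 81.6 CPM in vehicle and 52.4 and 57.2 CPM in IACS-70654 libraries, and the change of -0.74 ± 0.23 did not pass (adjusted p = 0.047). The calls in Megakaryocyte-like cells (-1.57 ± 0.39, on 9 to 32 UMIs per library) and in Neutrophil-GMP-like cells (-1.86 ± 0.49, on 3 to 25 UMIs) rest on few molecules. The first was lost without IACS-70654 replicate 1 (-1.24) or vehicle replicate 1 (-1.49), and the second without either of these (-1.26 and -1.89) or without vehicle replicate 2 (-1.83). Sums of thinned cells ended the first (-1.51) and DESeq2 the second (-1.82).

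Hlf was called in 1 of 10 classes. In HSC-like cells it was at 608 and 659.5 CPM in WT, 553 and 564 CPM in vehicle and 821 and 726 CPM with IACS-70654. The IACS-70654 libraries were the highest of all, and the change of 0.43 ± 0.1 had an adjusted p of 0.0024 but stayed under the fold asked for a call. In MPP-like cells the levels were 174 and 159, 155 and 169.5, and 187 and 190.0 CPM, again with IACS-70654 highest, and the change was 0.22. The single call was a fall in Megakaryocyte-like cells, from 47.6 and 35.3 CPM in vehicle to 31.8 and 30.6 CPM with IACS-70654 (-0.56 ± 0.17, adjusted p = 0.0095), beside 38.4 and 38.3 CPM in WT, and it was lost in 11 of 16 alternatives, among them without vehicle replicate 1 (-0.25), either WT replicate (-0.56 and -0.56), or IACS-70654 replicate 1 (-0.59) or 2 (-0.54).

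Meis1 went up. It was called up in 4 of 12 classes and down in none. In Basophil-mast-like cells it was at 308 and 319 CPM in WT, 289 and 255 CPM in vehicle and 648 and 686 CPM in IACS-70654 libraries, a change of 1.15 ± 0.072 (edgeR, adjusted p = 8.2e-23). That class is made of 2 clusters whose proportions moved. The cluster led by Prss34 and Mcpt8 took 7.56% and 7.12% of kept cells in vehicle and 0.92% and 0.86% with IACS-70654, and the cluster led by Gzmb and Scin, where Meis1 is higher, 2.34% and 2.82%, then 2.42% and 2.34%. Within these clusters the change of Meis1 was 0.47 (adjusted p = 0.013) and 0.49 (adjusted p = 6.7e-04), and neither was called.

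In Monocyte-progenitor-like cells Meis1 rose from 70.1 and 67.8 CPM in vehicle to 118 and 113 CPM with IACS-70654, with 63.8 and 63.4 CPM in WT, a change of 0.71 ± 0.057 (adjusted p = 4e-16). It also rose in Lymphoid-primed-like cells (0.76 ± 0.11, lost without vehicle replicate 1, 0.47) and in the Pdzph1/Apoe-led cluster (0.68 ± 0.068), whose makeup moved as given for Mecom. Within the Tgfbr3-led part of that cluster Meis1 was at 794 and 1134 CPM in vehicle and 969 and 1046 CPM with IACS-70654, which overlap, and the change of 0.10 was not called (adjusted p = 0.77). In HSC-like cells Meis1 was at 1070.0 and 1218 CPM in WT, 1082 and 1178 CPM in vehicle and 1536 and 1397 CPM with IACS-70654. In MPP-like cells it was at 529.7 and 557.5, 534 and 598, and 735 and 726.5 CPM. In both classes the IACS-70654 libraries were the highest, with changes of 0.34 ± 0.087 (adjusted p = 0.0084) and 0.37 ± 0.04 (adjusted p = 2.9e-10) that stayed under the fold, as did Megakaryocyte-like cells (0.44) and Neutrophil-GMP-like cells (0.29).

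Hoxa9, the HOX partner of Meis1, was called down in 4 of 10 classes and up in none. In Erythroid-like cells it was at 13.8 and 12.4 CPM in WT, 17.3 and 17.2 CPM in vehicle and 6.82 and 6.01 CPM with IACS-70654 (-1.39 ± 0.15, adjusted p = 8.9e-10). In Neutrophil-GMP-like cells it was at 29.4 and 26.4, 35.2 and 35.8, and 15.5 and 18.9 CPM (-1.11 ± 0.097, adjusted p = 2e-14). In both classes the 2 treated libraries were the lowest. The mean of Hoxa9 over all libraries was 12.3 CPM in Erythroid-like cells. It was 11.5 CPM in the S100a8/S100a9-led cluster, which served above as background for other factors, so the erythroid level is low. Hoxa9 ran from 3.98 to 22.35 CPM over the libraries of that cluster and fell there with treatment. The cluster is thus no fixed background for Hoxa9, and the part of free RNA in the erythroid fall was not tested. In Basophil-mast-like cells the change was -1.14 ± 0.24, which DESeq2 did not call (adjusted p = 0.021). Within the clusters of that class, whose proportions moved as given for Meis1, it was -1.002 (edgeR, adjusted p = 0.088, not called) in the cluster led by Prss34 and Mcpt8 and -1.48 (adjusted p = 0.0027, called) in that led by Gzmb and Scin. In the S100a8/S100a9-led cluster the change was -1.84 ± 0.32 on 6 to 98 UMIs per library, lost without IACS-70654 replicate 1 (-1.33) or vehicle replicate 1 (-1.14). In HSC-like cells Hoxa9 was at 96.5 and 141 CPM in WT, 113 and 168 CPM in vehicle and 176 and 191 CPM with IACS-70654, a change of 0.41 that did not pass (adjusted p = 0.17). This change ran from 0.069 to 0.63 over left-out libraries. In MPP-like cells the change was -0.11 (adjusted p = 0.39).

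Lmo2, the adaptor of the TAL1 and GATA complex, was called down in 3 of 12 classes. In Neutrophil-GMP-like cells it was at 203 and 209 CPM in WT, 207 and 213 CPM in vehicle and 139.9 and 137 CPM with IACS-70654, a change of -0.63 ± 0.041 (edgeR, adjusted p = 8.2e-20). In MPP-like cells it was at 394.5 and 375, 372 and 353, and 294 and 303 CPM. There too the IACS-70654 libraries were the lowest, but the change of -0.30 ± 0.044 (adjusted p = 6.5e-07) stayed under the fold. In HSC-like cells Lmo2 was at 619 and 728 CPM in WT, 626 and 630.1 CPM in vehicle and 777 and 749.5 CPM with IACS-70654, a change of 0.23 (adjusted p = 0.23). It was also called down in Basophil-mast-like cells (-0.70 ± 0.15, lost without IACS-70654 replicate 1, -0.78, or vehicle replicate 1, -0.59, or with DESeq2, -0.68) and in Lymphoid-primed-like cells (-0.66 ± 0.13, lost without IACS-70654 replicate 2, -0.52, with centered components, -0.56, at resolution 1.5, -0.45, or with thinned sums, -0.55). Neither cluster of the Basophil-mast-like class was called by itself (-0.68, adjusted p = 0.051, and -0.23, adjusted p = 0.79), and the sign of the class turned with other clusterings. Lmo2 overlaps the antisense gene 4931422A03Rik.

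Gata2, needed for stem cells and mast cells, was called in 1 of 9 classes. In Erythroid-like cells it was at 21.9 and 23.2 CPM in WT, 21.97 and 22.44 CPM in vehicle and 9.31 and 8.23 CPM with IACS-70654, with a change of -1.30 ± 0.13 (edgeR, adjusted p = 1.5e-10) and no overlap between IACS-70654 and the rest. Over alternatives this change ran from -1.66 to -0.68. Gata2 fell in 3 single erythroid clusters as well, by 1.42, 1.26 and 1.74 on the log2 scale. In MPP-like cells it was at 59.5 and 62.0 CPM in WT, 46.0 and 52.3 CPM in vehicle and 67.2 and 67.0 CPM with IACS-70654, and in Megakaryocyte-like cells at 119 and 143, 118 and 133, and 178 and 181 CPM. The treated libraries were highest in both, and the changes of 0.47 ± 0.082 (adjusted p = 1.8e-05) and 0.48 ± 0.091 (adjusted p = 2.4e-05) stayed just under the fold. In Basophil-mast-like cells, where its level was highest, the change was -0.01 (adjusted p = 0.97).

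Erg and Tal1 were called in 1 class each. Erg was called in 1 of 11 classes, down in the S100a8/S100a9-led cluster (-0.52 ± 0.11, lost without IACS-70654 replicate 1, -0.48, or vehicle replicate 2, -0.50, with DESeq2, -0.52, or with thinned sums, -0.55), and in MPP-like cells it went from 179 and 189 CPM in vehicle to 231 and 237 CPM with IACS-70654, beside 195 and 209 CPM in WT, a change of 0.35 (adjusted p = 8.3e-07) under the fold. Tal1 was called in 1 of 11, up in the Pdzph1/Apoe-led cluster, from 138 and 96.8 CPM in vehicle to 184 and 199 CPM, with 132 and 121 CPM in WT (0.55 ± 0.14, adjusted p = 0.0016), and the call was lost in 5 of 13 alternatives, among them without vehicle replicate 2 (0.39), IACS-70654 replicate 1 (0.62) or IACS-70654 replicate 2 (0.52). Within the Tgfbr3-led part of this cluster the change of Tal1 was 0.74 and was not called (edgeR, adjusted p = 0.063). Erg changed by -0.84 in that part and was not called either (adjusted p = 0.039). In HSC-like cells the change of Erg was 0.36 (adjusted p = 0.14) and that of Tal1 0.18 (adjusted p = 0.78).

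**Figure D4:**
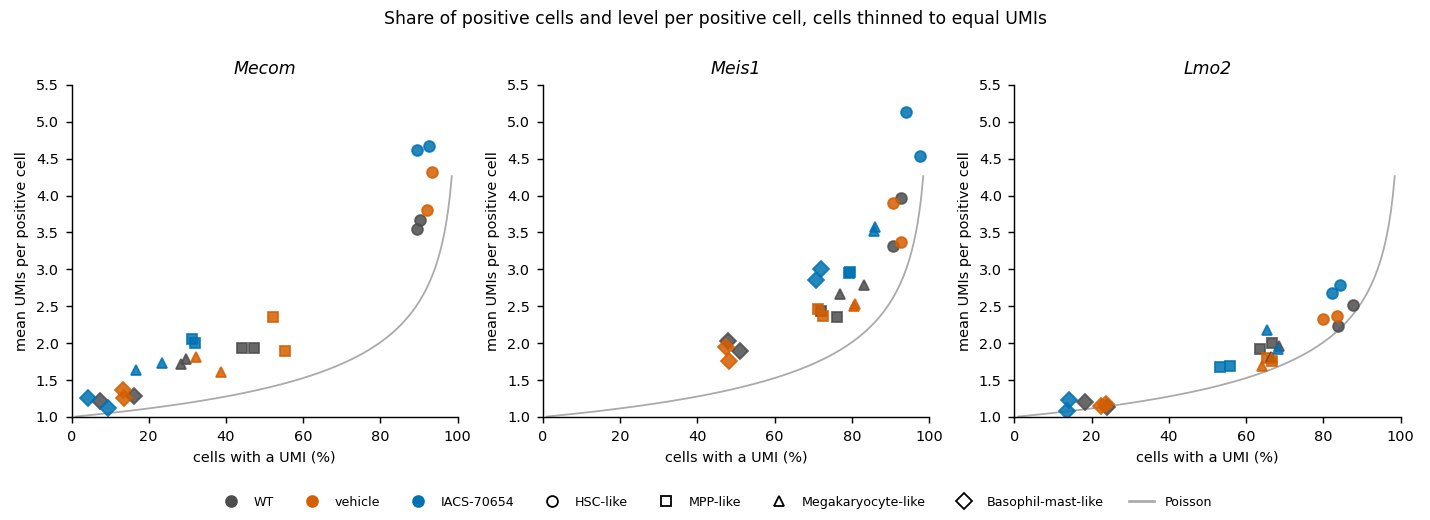
Share of thinned cells with at least 1 UMI (percent) against mean UMIs per positive cell for Mecom, Meis1 and Lmo2 in 4 classes, with 1 point per library colored by group. The grey line is the mean that Poisson counts with that share would give. In MPP-like cells the IACS-70654 points of Mecom lie to the left and those of Meis1 above.

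A lower class sum can come from fewer positive cells or from fewer UMIs in each, so both were tested. The tests do not compare the measures or the factors with each other. The share of positive cells was tested with edgeR on numbers of thinned cells with a UMI, and the level per positive cell with limma on log2 UMIs, each called at an adjusted p under 0.01. Over 10 classes, 5 of 78 tests of shares were called (background over all genes in these classes 0.452%) and 5 of 61 tests of the level per positive cell (1.17%).

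The fall of Mecom in MPP-like cells was called in the share and not in the level per positive cell. Mecom was detected in 47.2% and 44.2% of thinned MPP-like cells from WT, 52.1% and 55.2% after vehicle and 31.9% and 31.3% after IACS-70654 (64.4% and 60.7%, 70.7% and 70.5%, and 45.1% and 42.2% without thinning). Both treated libraries were the lowest, far above the 1.29% to 2.54% of the S100a8/S100a9-led cluster, and the median UMIs of MPP-like cells were 6282 and 6538, 7150 and 6324, and 5354 and 5336. The change of the share was -0.75 on the log2 scale (edgeR, adjusted p = 3.1e-06), where 0.8% of genes were called in the class and 2 of 9 factors, and it was called in 10 of 10 alternatives. A positive cell held 1.93 and 1.93 UMIs of Mecom in WT, 2.36 and 1.89 in vehicle and 2.01 and 2.05 with IACS-70654. The groups overlapped, and the change of -0.06 did not pass (limma, adjusted p = 0.94). Poisson counts with these shares would give 1.199 to 1.455 UMIs per positive cell, less than observed in each library, so Mecom UMIs were more unevenly spread over MPP-like cells than Poisson counts would be.

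In HSC-like cells, 89.5% and 90.2% of thinned cells from WT, 92.0% and 93.3% from vehicle and 92.5% and 89.4% from IACS-70654 libraries had Mecom, with 3.55 and 3.68, 3.81 and 4.31, and 4.67 and 4.62 UMIs per positive cell. Neither measure was called (-0.02 for the share, and 0.20 with an adjusted p of 0.49 for the level). For shares in HSC-like cells edgeR called 0 of 9 factors and 0% of genes, and 0 factors had an unadjusted p under 0.05, at 75 to 163 thinned cells per library. The shares of Mecom, Meis1 (90.7% to 97.7%), Lmo2 (80% to 87.8%) and Hlf (76.5% to 84.2%) were near the ceiling there, so the share could hardly show a rise, and the lack of calls does not show that shares stayed the same. For the level per positive cell, limma called 0 of 9 and 0.486% of genes, with 4 factors at an unadjusted p under 0.05, beside 256 of 2883 genes.

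Lmo2 in MPP-like cells was also called in its share, which was 66.8% and 63.6% in WT, 66.6% and 65.3% in vehicle and 53.4% and 56.0% with IACS-70654 (-0.28, adjusted p = 0.0016). The unthinned shares were 89.3% and 85.5%, 88.6% and 85.9%, and 74.4% and 74.0%. The S100a8/S100a9-led cluster is no background for Lmo2, since 31.7% to 38.1% of its cells had it. In Neutrophil-GMP-like cells the share of Lmo2 was 43.5% and 42.0%, 45.7% and 42.6%, and 32.8% and 32.0% (-0.46, adjusted p = 8.1e-04; 1 of the factors called, with 0.683% of genes). The level of Lmo2 per positive MPP-like cell was 2.00 and 1.92, 1.76 and 1.80, and 1.68 and 1.69 UMIs and did not pass (-0.08, adjusted p = 0.75). The calls on the shares of Lmo2 were lost without vehicle replicate 1 (-0.27 in MPP-like and -0.39 in Neutrophil-GMP-like cells) or IACS-70654 replicate 1 (-0.24 and -0.48), in MPP-like cells also without vehicle replicate 2 (-0.29) or thinned to 2000 UMIs (-0.18), and in Neutrophil-GMP-like cells with at least 2 UMIs asked (-1.001).

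Meis1 had calls in both measures. In Basophil-mast-like cells the share was 48.0% and 51.0% in WT, 47.3% and 48.1% in vehicle and 72.02% and 70.65% with IACS-70654 (0.59, adjusted p = 0.0037, background 0.352%), and a positive cell held 2.02 and 1.89, 1.95 and 1.75, and 3.01 and 2.86 UMIs (0.67, adjusted p = 2e-05, background 3.01%). The change in cluster makeup given above applies to both. In Monocyte-progenitor-like cells the share went from 16.2% and 14.3% in vehicle to 26.6% and 25.5% (0.74, adjusted p = 0.0038, background 0.923%), and WT was at 14.1% and 15.7%. Both share calls were lost when any vehicle or IACS-70654 library was left out (0.57 to 0.60 and 0.69 to 0.88), the first also with no thinning (0.23, adjusted p = 0.064) and the second with at least 2 UMIs asked of a positive cell (1.27, adjusted p = 0.012), and the call on the level per positive Basophil-mast-like cell without either vehicle library (0.74 and 0.59).

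In MPP-like cells the share of Meis1 was 72.03% and 76.13%, 72.4% and 71.2%, and 79.5% and 79.2%, a change of 0.14 that did not pass (adjusted p = 0.17). A positive cell held 2.44 and 2.36 UMIs in WT, 2.36 and 2.47 in vehicle and 2.97 and 2.95 with IACS-70654 (0.29, adjusted p = 0.0058, 1 of 8 factors called, background 0.277%). The call was lost in 8 of 9 alternatives, without any of the 6 libraries among them (0.26 to 0.32), and the change was 0.19 (adjusted p = 0.18) in cells thinned to 2000 UMIs and 0.072 (adjusted p = 0.76) with no thinning. The level per positive cell was also called up in Megakaryocyte-like cells, from 2.51 and 2.53 to 3.52 and 3.57 UMIs with 2.66 and 2.78 in WT (0.49, adjusted p = 4.5e-06, background 1.84%), and in the Pdzph1/Apoe-led cluster, from 2.56 and 2.67 to 3.38 and 3.57 UMIs (0.41, adjusted p = 3.2e-04, background 2.14%). Both calls were lost without vehicle replicate 2 (0.50 and 0.44), IACS-70654 replicate 1 (0.50 and 0.45) or IACS-70654 replicate 2 (0.48 and 0.37). With no thinning the change in Megakaryocyte-like cells was -0.028 and was not called. In the Pdzph1/Apoe-led cluster the shift in makeup given above applies, and a positive cell of its Tgfbr3-led part held 2.81 and 3.60 UMIs of Meis1 in vehicle and 3.44 and 3.61 with IACS-70654, which overlap. The remaining call was Gata2 in Erythroid-like cells, where a positive cell held 1.12 and 1.15 UMIs in WT, 1.24 and 1.32 in vehicle and 1.08 and 1.06 with IACS-70654 (-0.26, adjusted p = 0.0052, background 0.879%), and it was lost without any of the 6 libraries (-0.30 to -0.21) or thinned to 2000 UMIs (-0.20).

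Pairs of factors were counted in single cells, beside the product of the single shares, the share that independent detection would give. Mecom and Meis1 were found together in 38.0% and 38.2% of thinned MPP-like cells from WT, 42.0% and 45.1% from vehicle and 27.9% and 28.4% from IACS-70654 libraries, against products of 34.0% and 33.7%, 37.7% and 39.3%, and 25.4% and 24.7%. Hlf and Mecom were found together in 23.0% and 23.6%, 23.9% and 24.5%, and 17.9% and 16.5%, against 17.2% and 15.2%, 18.4% and 19.6%, and 11.6% and 11.6%. Both pairs were above the product in each library, and both shares were lowest in the IACS-70654 libraries. In HSC-like cells, where Mecom was not called, Hlf and Mecom were together in 68.6% and 75.6%, 73.6% and 74.7%, and 78.9% and 70.6%, against 68.7% and 74.8%, 72.8% and 72.2%, and 77.9% and 68.4%.

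Between tumor-bearing mice on vehicle and WT mice no factor was called within a class. In single clusters, a view chosen after the data had been seen, Mecom was called higher in vehicle in 1 of 14 clusters, a Neutrophil-GMP-like one (0.59, adjusted p = 3.1e-04, background 1.25%), and in 1 of 4 MPP-like clusters at resolution 1.5 (0.52, adjusted p = 0.0011, background 0.519%). With vehicle against WT 0 of 91 tests were called by edgeR and 0 by DESeq2, while 26 had an unadjusted p under 0.05. Of all 109160 tests of genes over these 12 classes 0.764% were called, and 14972 had an unadjusted p under 0.05. For shares 0 of 78 were called by edgeR and 9 had an unadjusted p under 0.05 (background 0.0218%). For the level per positive cell 0 of 61 were called by limma and 13 had one (background 0.598%). Over all genes, 4798 of 87125 tests of shares and 4346 of 51030 tests of the level had one. Uncalled tests with an adjusted p under 0.05 in edgeR included Mecom, higher in vehicle in MPP-like cells (0.23 ± 0.052, adjusted p = 0.0022) and in Neutrophil-GMP-like cells (0.46 ± 0.11, adjusted p = 0.0037). They also included Prdm16, higher in MPP-like cells (0.89 ± 0.25, adjusted p = 0.024), and Erg, lower in Neutrophil-GMP-like cells (-0.40 ± 0.069, adjusted p = 1.2e-05). Without WT replicate 2 the change of Mecom in Neutrophil-GMP-like cells was 0.68 and was called. With IACS-70654 against WT, which shares its treated libraries with the comparison above, 18 of 91 tests were called (background 4.42%), and the interaction called Mecom (0.79) and Lmo2 (0.50), 2 of 9, with 0.202% of genes. Called against vehicle but not against WT were Prdm16 in MPP-like and Neutrophil-GMP-like, Hlf in Megakaryocyte-like and Mecom in Erythroid-like cells. The same held for Hoxa9 in Basophil-mast-like and Lmo2 in Lymphoid-primed-like cells. It also held for Hoxa9 and Erg in the S100a8/S100a9-led and Tal1 in the Pdzph1/Apoe-led cluster.

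**Figure D5:**
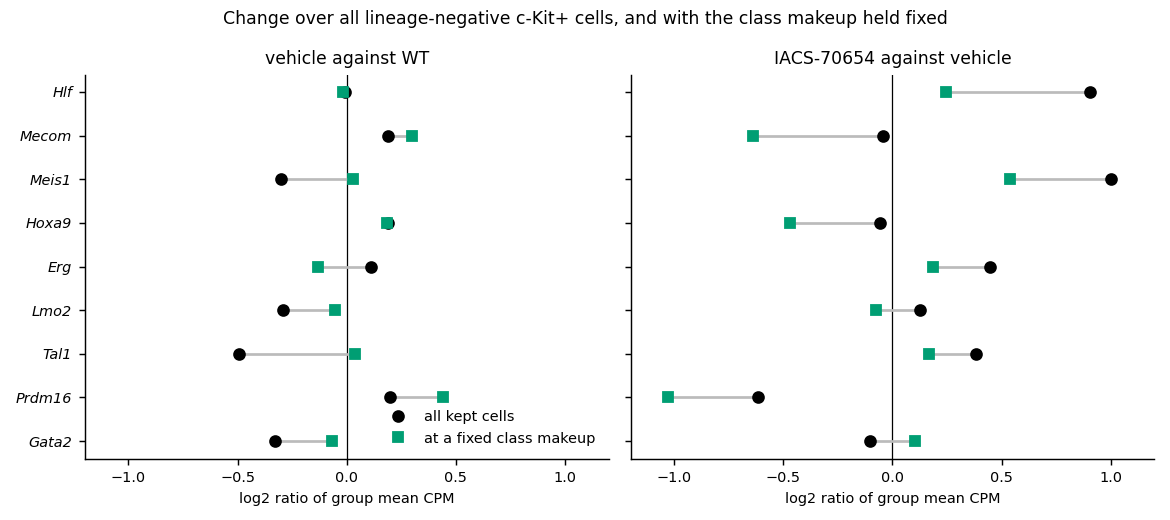
Log2 ratio of each factor's CPM over all kept cells and over the same classes held at a fixed makeup, for vehicle against WT and IACS-70654 against vehicle. With IACS-70654, Hlf goes from 0.90 over all cells to 0.24 at fixed makeup, and Mecom from -0.04 to -0.64.

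The factors were also summed over all sorted cells. A sum over all cells cannot tell a change in the makeup of classes from a change in the level per cell. Hlf was at 38.1 and 39.5 CPM in WT, 37.7 and 39.4 CPM in vehicle and 73.0 and 71.5 CPM with IACS-70654, and was called up by 0.86. Meis1 was at 214 and 235, 178 and 187, and 361.5 and 368 CPM and was called up by 0.95, and Prdm16 at 3.51 and 4.04, 4.17 and 4.49, and 2.79 and 2.87 CPM and called down by 0.66 on the log2 scale. Thus 3 of 9 were called with a background of 10.5%. With IACS-70654 against WT, Hlf (0.83), Meis1 (0.63) and Gata2 (-0.50) were called, 3 of 9 with a background of 10.8%, and the call of Gata2 was lost without WT replicate 2 (-0.45) or IACS-70654 replicate 1 (-0.49), with no filter on low counts (-0.48) or with a replicate block (-0.50). Mecom, at 74.3 and 81.9, 86.2 and 92.0, and 89.3 and 83.8 CPM, was not called. MPP-like cells supplied 39.1% and 41.2% of all Mecom UMIs in vehicle and 57.2% and 58.7% with IACS-70654, and of Hlf 41.0% and 46.3% and then 66.0% and 69.1%.

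With the classes held at a fixed makeup, the log2 ratio of IACS-70654 to vehicle went from 0.90 to 0.24 for Hlf, from 1.00 to 0.54 for Meis1, from -0.04 to -0.64 for Mecom, from -0.06 to -0.47 for Hoxa9 and from -0.61 to -1.03 for Prdm16. These ratios are a description with no test, and shifts between clusters within a class remain in them. For vehicle against WT, Tal1 was called down over all cells (from 72.7 and 74.3 CPM to 52.7 and 51.9 CPM, -0.51, 1 of 9, background 9.76%), a call lost without WT replicate 2 (-0.50) or vehicle replicate 2 (-0.49). At a fixed makeup its ratio went from -0.49 to 0.04. Erythroid-like cells, 1 of the classes with much Tal1, took 23.9% and 23.5% of kept cells in WT and 12.6% and 11.5% in vehicle. The Pdzph1/Apoe-led cluster, where the mean level of Tal1 was higher, at 145 CPM beside 101 CPM, went from 15.25% and 16.52% to 3.17% and 3.63%.

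A list of 25 partners and relatives of the 9 factors was examined beside them. In HSC-like cells 0 of 18 were called with IACS-70654 against vehicle, beside a background of 1.01%, with a median log2 change of 0.155 beside -0.00503 for all genes tested. In MPP-like cells 1 of 24 was called, Pbx3, a TALE partner of Meis1 and Hoxa9 (0.52 ± 0.079), with a median of 0.0425 beside 0.0023 for all genes. The background there was 4.98%, so a single call among 24 genes is near the background and is no result about the list. Pbx3 was also called up in Erythroid-like, Monocyte-progenitor-like and Neutrophil-GMP-like cells and in the Pdzph1/Apoe-led cluster, by 0.51 to 0.71. Hoxa7, a neighbor of Hoxa9 in its gene cluster, was called down in Erythroid-like (-1.42), Neutrophil-GMP-like (-0.91) and Monocyte-progenitor-like cells (-0.55) and in the S100a8/S100a9-led cluster (-2.22). Lyl1, a close relative of Tal1, was called down in Erythroid-like cells (-0.78), and Runx1 up in Lymphoid-primed-like (0.54) and down in Eosinophil-like cells (-0.69). In MPP-like cells the changes of Runx1, Fli1 and Lyl1, which are known to bind together with Erg, Gata2, Lmo2 and Tal1, were 0.18, -0.02 and 0.10, and in HSC-like cells 0.26, -0.44 and 0.16, with no call. Counts of the list in the other classes were small, at most 3 of 21 to 23 genes, beside the class backgrounds given above, and no class is singled out by them. Other calls were Myb (0.68) and Ikzf1 (0.52), up in Megakaryocyte-like cells (2 of 22, background 7.6%), Cebpa (-1.39) and Nfe2 (-0.52), down in Basophil-mast-like cells (background 9.41%), and Ldb1 (-0.89), down in the Pdzph1/Apoe-led cluster. Of the 2 enzymes inhibited, Crebbp was called up in Basophil-mast-like cells (0.58) and Ep300 in Megakaryocyte-like cells (0.63), each 1 of 2 against the same backgrounds. For Cebpa, Nfe2 and Crebbp, the proportions of the 2 clusters of Basophil-mast-like cells moved with treatment as given above, and their part in these changes was not tested. Within the Tgfbr3-led part of the Pdzph1/Apoe-led cluster neither Ldb1 nor Pbx3 was called, and the change of Ldb1 had the other sign (0.83, adjusted p = 0.44, and 0.73, adjusted p = 0.26, for Pbx3).

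Some measures moved with treatment beside these results. In MPP-like cells, where Mecom and Prdm16 fell against vehicle, the stem cell surface and other genes Slamf1 (-0.97), Fgd5 (-1.43) and Ly6a (-1.79) were called down as well, among 4 called down of 15 (background 4.98%). Slamf1 and Fgd5 were also markers used to name HSC-like cells. Malat1, a nuclear RNA, rose with IACS-70654 by 0.73 in HSC-like and 0.70 in MPP-like cells, and the median UMIs per cell fell in both classes, in HSC-like cells from 3938 and 3904 in vehicle to 3188 and 3277. Several of the 9 factors are long genes, so the median log2 change of 1535 genes over 100 kb in MPP-like cells was taken, and it was -0.00652 beside 0.0023 for all genes, against 0.0488 and -0.00503 in HSC-like cells. Over the other classes this median ran from -0.188 in the Igkc-led cluster to 0.155 in Lymphoid-primed-like cells. It was 0.14 in Basophil-mast-like cells. Meis1, of 139 kb, was called up in the latter 2 classes. The part of these measures in the results was not tested.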

How the data were processed

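Raw UMI counts per gene and cell were deposited by the authors, who ran CellRanger multi (7.2.0 in the file headers), which aligned reads, called cells and assigned them to samples by CellPlex tags. The submitters' processing notes name mm10 and Seurat. Whether intronic reads were counted is not given in the sources used here. The HSPC libraries were analysed, and the other libraries were not used here. The paper gives a treatment a day shorter than the record for BM.

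Kept cells had over 200 but under 6000 genes, with a mitochondrial share of UMIs no higher than 10%, and all 6 libraries were clustered together without integration (scanpy 1.11.5, leidenalg 0.10.2; 2000 variable genes, 30 components, 20 neighbors, resolution 1.0). Classes rest on marker lists, not on the authors' names. A doublet caller marked 0 to 5 cells per library and was not relied on. Cells with the 5% highest scores were left out as an alternative.

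Counts were summed per class and library and tested with edgeR 4.0.16 (filterByExpr, TMM, quasi-likelihood, 3 groups in 1 fit), shares and levels in cells thinned to 3000 UMIs with edgeR and limma 3.58.1 (R 4.3.3), and DESeq2 1.42.0 was an alternative. A gene needed 10 positive cells for tests of shares and of levels per positive cell. Classes with fewer than 20 cells in a library were left out there. Fixed makeup means that class CPM values were weighted by the same class shares in each group. All 9 factors are accounted for, and of the lists of partners, of stem cell surface and other genes and of the inhibited enzymes those called are named, with Runx1, Fli1 and Lyl1, except a few genes that are not reported here. The factors and lists were chosen with earlier results of these data known. Tests were tried on simulated data that held no shift of clusters within a class, so these trials say nothing of such shifts. Other scalings, filters, clusterings, depths and left-out libraries were tried. Counts are not molecules per cell, and intervals between libraries do not cover differences between mice. Data handling used Python 3.11.15.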

Additional observations from a re-analysis of the deposited data

Results flagged for a closer look

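Effects of IACS-70654 against vehicle that differed between classes were picked out where the difference itself passed an interaction test in edgeR at an adjusted p under 0.01. All differences are on the log2 scale, and all but those between HSC-like and MPP-like cells were chosen after the data had been seen. The differences chosen then were not tested under alternatives or without a library.

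Against MPP-like cells, HSC-like cells differed for Mecom (0.81) and Lmo2 (0.52). Against other classes the effect of Mecom was higher in HSC-like cells than in Neutrophil-GMP-like (1.12), Basophil-mast-like (1.09), Megakaryocyte-like (0.97) and Erythroid-like cells (0.91). The share of all genes with such a difference was 0.577%, 1.16%, 0.404% and 1.18% in that order. The falls of Mecom in Basophil-mast-like and Erythroid-like cells were each lost under some alternative, as given above. For Lmo2 the HSC-like effect exceeded that of Basophil-mast-like cells by 0.94, of Lymphoid-primed-like cells by 0.89 (0.0933% of genes), of Neutrophil-GMP-like cells by 0.89 and of Monocyte-progenitor-like cells by 0.69 (0.521%). The first of these depends on the clustering: the change of Lmo2 in Basophil-mast-like cells, a fall here, was 1.08 with centered components and 1.06 at resolution 1.5, where the difference from HSC-like cells was not tested. The fall of Lmo2 in Lymphoid-primed-like cells was lost under some alternatives, as given above. For Hoxa9 the HSC-like effect exceeded that of Erythroid-like cells by 1.80, of Basophil-mast-like cells by 1.57, of Neutrophil-GMP-like cells by 1.55 and of the Pdzph1/Apoe-led cluster by 1.31 (1.05%). The makeup of the Pdzph1/Apoe-led cluster moved with treatment. Against its Tgfbr3-led part alone the difference for Hoxa9 was 1.25 and did not pass (edgeR, adjusted p = 0.40). Mecom (1.97, adjusted p = 5.6e-13) and Erg (1.21, adjusted p = 0.0043) passed there, with 0.228% of genes. The HSC-like change of Hoxa9, on which its differences rest, ran from 0.069 to 0.63 over left-out libraries. In Erythroid-like cells Hoxa9 was near the level of the S100a8/S100a9-led cluster. Hlf, which had its only call in Megakaryocyte-like cells, had an effect higher by 0.99 in HSC-like cells. That fall of Hlf kept its call in only 5 of 16 alternatives and was -0.25 without vehicle replicate 1. Meis1 went in the opposite direction, with a difference of -0.79 between HSC-like and Basophil-mast-like cells, a class in which the proportions of its clusters moved with treatment.

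The effect of Gata2 was lower in Erythroid-like cells than in HSC-like cells (by 1.46), MPP-like cells (by 1.76) and Megakaryocyte-like cells (by 1.78). Of these classes, only Erythroid-like cells had a call of Gata2 by itself. Hoxa9 also had a lower effect in Erythroid-like cells than in MPP-like (by 1.29) and Megakaryocyte-like cells (by 1.03). MPP-like minus Erythroid-like effects were 0.70 for Erg and -0.55 for Lmo2. Of all genes, 6.78% differed between MPP-like and Erythroid-like cells and 9.38% between Megakaryocyte-like and Erythroid-like cells.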

How the results depend on the processing

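Of 689 values of named results under alternatives, 573 kept their direction and their side of the threshold, 102 kept their direction but were no longer called, 3 became called and 11 changed sign. The total holds 34 values without the few cells marked as doublets, which could hardly move. It also holds 41 values at an adjusted p under 0.05 with no fold, where no call can be lost. Values in HSC-like cells that stayed uncalled count as kept. The 573 therefore overstate how stable the calls are. Mecom in MPP-like (-0.87 to -0.61), Megakaryocyte-like and Neutrophil-GMP-like cells, Hoxa9 in Neutrophil-GMP-like and Erythroid-like cells, Meis1 in Basophil-mast-like and Monocyte-progenitor-like cells, Prdm16 in MPP-like cells, Gata2 in Erythroid-like cells and Lmo2 in Neutrophil-GMP-like cells were called under each alternative that gave a value, but Meis1 was not called within either cluster of the Basophil-mast-like class (0.47 and 0.49). The 25 calls of IACS-70654 against vehicle became 14 with DESeq2, 46 at an adjusted p under 0.05 with no fold, and 17 to 24 without a library. The 18 calls against WT became 11 and 36 with those choices, and 14 to 19. DESeq2 also called fewer of all genes in the larger classes. In MPP-like cells, against vehicle, it called 222 of 12087 genes where edgeR called 602. The share of all genes called is not given for the other choices. For vehicle against WT, 0 calls became 9 at the looser threshold, 1 with no filter on low counts (Mecom in the Igkc-led cluster), 6 with components centered within libraries (3 of Gata2), 2 at resolution 0.6, 1 with thinned sums (Erg) and 0 to 1 without a library. The 5 calls of shares became 20 with no thinning and 1 to 5 without a library, fewest without IACS-70654 replicate 1 or vehicle replicate 1. The 5 calls of the level per positive cell became 3 at 2000 UMIs and 0 to 3 without a library, fewest without vehicle replicate 2, and 0 became 1 for vehicle against WT with no thinning. Over all cells, the 3, 1 and 3 calls became 8, 6 and 7 at the looser threshold, and 3, 0 to 1 and 2 to 4 without a library. The differences between HSC-like and MPP-like cells gave 1 to 2 calls without a library in both treated comparisons and 0 for vehicle against WT.

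Signs changed for Lmo2 in Basophil-mast-like cells, to 1.08 with centered components and 1.06 at resolution 1.5, for the level of Meis1 per positive Megakaryocyte-like cell with no thinning (-0.028), and for 2 uncalled values in HSC-like cells, Tal1 with thinned sums (-0.038) and Mecom. Mecom in HSC-like cells was 0.0088 with no filter, 0.058 at resolution 0.6, 0.020 at resolution 1.5, 0.12 with thinned sums, 0.018 without the highest doublet scores, 0.051 without IACS-70654 replicate 2 and 0.041 without vehicle replicate 2, within -0.070 to 0.051 over left-out libraries. The cause was not tested. No HSC-like cluster formed with centered components, so these values have no such alternative.

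The labels do not say whether replicate numbers pair the samples. Same-numbered libraries deviated from their group means with r of 0.0457, 0.0216 and -0.254 over all cells and -0.0214 to 0.0352 in HSC-like and MPP-like cells. The value of -0.254 was between vehicle and IACS-70654 libraries. Such correlations cannot tell how samples were paired. With the replicate number as a block, 24 calls were made against 25 without it, 20 against 18 for IACS-70654 against WT and 2 against 3 over all cells in that comparison. Named calls lost under the block were Hlf in Megakaryocyte-like cells (-0.54) and Gata2 over all cells against WT (-0.50). HSC-like cells had 95 to 225 cells per library, which limits what could be detected there.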

Other observations

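Within single clusters, a view chosen after the data had been seen, Mecom was called down with IACS-70654 against vehicle in 8 of 14 clusters, Prdm16 in 3 of 3 and Hoxa9 in 6 of 14. Of all genes tested, 0.361% to 6.82% were called per cluster. Meis1 was called up in 4 of 15, among them the cycling MPP-like cluster (0.52). Gata2 was called up in that cluster (0.77) and in 1 of the Megakaryocyte-like clusters (0.95) and down in 3 erythroid ones, 5 of 14. Erg was called down in 1 of 14 and Lmo2 in 2 of 15, and Hlf and Tal1 in none.

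Of 15 stem cell surface and other genes, Kit, Flt3, Malat1 and Txnip were called up in HSC-like cells with IACS-70654 against vehicle, 4 of 14 tested, and none was called down (background 1.01%). In MPP-like cells 6 of 15 were called, 2 up and 4 down (background 4.98%). Malat1 and Txnip were those up, and Slamf1 (-0.97), Fgd5 (-1.43) and Ly6a (-1.79) were among the 4 down. The paper already reports a rise of Malat1 and Txnip in HSCs and MPPs from these data. Flt3, Slamf1 and Fgd5 are among the markers that named the classes. The counts of this list are therefore a description and no independent test.

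The genes whose level followed a factor most closely over 66 class sums of 11 classes, a description in which sums share libraries and depth, were Nkx2-3 (Pearson r = 0.932) and Mecom (0.914) for Hlf, Samd12 (0.938) for Mecom, Prkce (0.959) and Rgs1 (0.954) for Meis1, Sirt3 (0.899) for Hoxa9, Elmo1 (0.943) for Erg, Ppp1r9a (0.916) for Lmo2, Gse1 (0.928) for Tal1 and Slc18a2 (0.923) for Gata2. Prdm16 was too low for this comparison, with a mean under 10 CPM.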
